A study of Mus musculus with 16 samples.

Results

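Intergenic open chromatin at 3 to 100 kb from the start of a protein-coding transcript was described in HSPCs, the hematopoietic stem and progenitor cells of mouse bone marrow. Peaks of the 16 peak lists on chromosomes 1 to 19 were merged where they shared 1 bp, which gave 291316 regions. A region was taken when its midpoint lay outside all genes, more than 3 kb from any transcript start and at most 100 kb from a protein-coding start, and when at least 4 lists had a peak in it. Of 125367 regions with a peak in at least 4 lists, 28344 (22.6%) met this rule. The rule used position and recurrence and no comparison between genotypes. At the limit on recurrence, 1878 regions had a peak in exactly 4 lists, and 2523 regions of the same position with a peak in exactly 3 lists were left out.

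In ATAC-seq, a transposase inserts adapters into DNA that is free of nucleosomes, so that reads pile up at promoters, enhancers and insulators. Intergenic open regions at some distance from a start include enhancers, which bind lineage transcription factors and recruit coactivators. p300, encoded by Ep300, is such a coactivator and acetylates histones at enhancers, and Tet2 oxidizes methylated cytosine, a modification that is often turned over at enhancers. In HSPCs, factors of the Gata, Runx, Ets, Tal1, Cebp and Myb families are known to occupy such elements.

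The 4 genotypes had 4 libraries each, and each library held 50000 HSPCs pooled from 2 mice of a genotype. Per the study's methods, the mice carried floxed Ep300 alleles, P300KO (Ep300 removed by Mx1-Cre) and P300KO_TET2KO mice had Ep300 deleted after poly(I:C), which induces Cre in hematopoietic and other interferon-responsive cells, and TET2KO mice were Tet2-/-. Mice were of the C57BL/6 background. All groups, WT included, received poly(I:C), and cells had been frozen before use. The methods place poly(I:C) in young adult mice, and the 2 mice of a pool were matched for age per the labels. Replicates 1 and 2 and replicates 3 and 4 were deposited as separate sets, and what differed between the sets was not given.

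Peaks within 3 kb of the starts of Kit, Cd34, Gata2, Flt3, Cd48 and Meis1, genes of stem and progenitor cells, were found in all 16 lists, and at Slamf1 in 15. At the T-cell genes Cd3e, Cd3g and Cd8a, 4 to 8 lists had a peak, at mean rank percentiles of 8.85 to 15.2. The B-cell gene Cd79b had a peak in 16 lists, at a mean rank percentile of 61.9, and Alb of liver had none. Peaks at Col1a1, Cdh5 and Neurod1 in all 16 lists show that a promoter peak by itself did not separate cell types. WT replicates 1 and 2 stood apart, with 45.0% and 63.2% of peaks at a −log10 q of 2 or more against 71.3% to 97.4% in the other 14 libraries. Counts of regions that differed between genotypes are also given without these libraries.

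The regions were unevenly spread over genes, and the sequences at the strongest region of 4 genes with many regions are shown first. Each window is the plus strand of the mm10 reference over 100 bp on either side of the strongest summit. The windows were chr2:170184630-170184830 upstream of Zfp217, chr3:115682453-115682653 downstream of S1pr1, chr17:31835739-31835939 downstream of Sik1 and chr4:135206337-135206537 downstream of the start of Runx3. Capitals mark the consensus strings that were searched on both strands: GAGGAAGT for the Ets family, AGATAA for the Gata family, TGTGGTT for the Runx family, CAGATG for Tal1, TGAGTCA for Ap1 factors, TTGCNNAA for the Cebp family and GAAANNGAA for the Irf family. Myb was searched as CAACGG and as the variant CAACTG, and with T as the first base as TAACGG and as the variant TAACTG. Ctcf was searched by a longer consensus. Strings could share bases.
Zfp217: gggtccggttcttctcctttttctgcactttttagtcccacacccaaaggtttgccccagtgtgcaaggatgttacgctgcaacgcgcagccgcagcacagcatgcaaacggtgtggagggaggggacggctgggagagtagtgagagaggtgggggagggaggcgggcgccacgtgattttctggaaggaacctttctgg
S1pr1: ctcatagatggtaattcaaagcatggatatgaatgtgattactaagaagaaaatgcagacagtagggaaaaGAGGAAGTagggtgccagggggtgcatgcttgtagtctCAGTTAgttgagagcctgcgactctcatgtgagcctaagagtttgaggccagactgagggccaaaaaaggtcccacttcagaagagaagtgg
Sik1: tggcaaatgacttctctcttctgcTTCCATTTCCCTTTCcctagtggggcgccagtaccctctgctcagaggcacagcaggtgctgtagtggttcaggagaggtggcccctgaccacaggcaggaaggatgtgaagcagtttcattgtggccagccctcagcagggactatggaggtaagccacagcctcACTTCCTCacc
Runx3: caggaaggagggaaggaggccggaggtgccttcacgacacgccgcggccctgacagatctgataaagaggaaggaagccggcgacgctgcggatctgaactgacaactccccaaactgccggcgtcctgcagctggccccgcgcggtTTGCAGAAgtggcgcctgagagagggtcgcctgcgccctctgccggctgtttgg
The Zfp217 window held none of the strings. The S1pr1 window held an Ets and a Myb string, the Sik1 window an Ets and 2 Irf strings, and the Runx3 window a Cebp string.

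A further 11 windows are shown, those of the 5 regions in each direction with the smallest p between libraries without and with p300 and that of the 1 region called higher in P300KO_TET2KO than in TET2KO, as described below. Those of Dock8 (chr19:24990286-24990486), Ncf4 (chr15:78267953-78268153), Mxi1 (chr19:53303512-53303712), Mterf1b (chr5:4186939-4187139) and Vtcn1 (chr3:100793460-100793660) ranked higher in libraries without p300, and that of Jdp2 (chr12:85593037-85593237) ranked higher in P300KO_TET2KO than in TET2KO.
Dock8: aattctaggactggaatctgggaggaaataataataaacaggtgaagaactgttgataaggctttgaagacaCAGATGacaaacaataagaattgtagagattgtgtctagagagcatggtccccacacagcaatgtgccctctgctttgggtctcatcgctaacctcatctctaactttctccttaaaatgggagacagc
Ncf4: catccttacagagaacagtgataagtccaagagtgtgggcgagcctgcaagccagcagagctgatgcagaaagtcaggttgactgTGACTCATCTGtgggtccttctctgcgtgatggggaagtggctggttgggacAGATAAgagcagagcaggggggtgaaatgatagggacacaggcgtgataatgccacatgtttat
Mxi1: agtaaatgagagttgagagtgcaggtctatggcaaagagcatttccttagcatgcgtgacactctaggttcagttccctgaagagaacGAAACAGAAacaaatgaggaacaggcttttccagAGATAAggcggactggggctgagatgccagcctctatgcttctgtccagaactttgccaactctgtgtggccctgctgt
Mterf1b: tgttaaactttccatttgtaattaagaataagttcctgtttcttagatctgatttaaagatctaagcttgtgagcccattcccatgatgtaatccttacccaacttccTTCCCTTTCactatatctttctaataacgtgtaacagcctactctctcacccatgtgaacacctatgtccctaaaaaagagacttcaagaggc
Vtcn1: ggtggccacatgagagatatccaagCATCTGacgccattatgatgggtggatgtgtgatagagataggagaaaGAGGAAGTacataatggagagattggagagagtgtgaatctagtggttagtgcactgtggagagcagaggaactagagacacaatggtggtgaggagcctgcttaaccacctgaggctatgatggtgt
Jdp2: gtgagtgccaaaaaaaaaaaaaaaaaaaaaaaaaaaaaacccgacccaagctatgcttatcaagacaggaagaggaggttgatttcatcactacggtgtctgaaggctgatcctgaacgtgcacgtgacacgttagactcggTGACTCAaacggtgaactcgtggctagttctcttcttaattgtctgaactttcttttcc
The Ncf4 window held Gata, Ap1 and Tal1 strings, the last pair sharing bases, and the Mxi1 window held Gata and Irf strings. The Dock8 window held a Tal1 string and the Mterf1b window an Irf string. The Vtcn1 window held Ets and Tal1 strings, and the Jdp2 window an Ap1 string.

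The regions of Dusp2 (chr2:127314561-127314761), Mlec (chr5:115167491-115167691), Med13l (chr5:118476675-118476875), Ing1 (chr8:11574987-11575187) and Cnn3 (chr3:121369731-121369931) ranked lower without p300.
Dusp2: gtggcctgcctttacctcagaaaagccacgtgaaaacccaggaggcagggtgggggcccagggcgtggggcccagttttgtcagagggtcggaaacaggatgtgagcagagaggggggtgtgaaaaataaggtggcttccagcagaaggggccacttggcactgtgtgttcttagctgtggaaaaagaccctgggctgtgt
Mlec: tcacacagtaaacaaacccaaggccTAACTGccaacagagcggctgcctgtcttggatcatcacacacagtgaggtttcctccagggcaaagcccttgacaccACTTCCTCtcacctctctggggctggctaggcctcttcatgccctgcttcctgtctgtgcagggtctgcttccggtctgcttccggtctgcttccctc
Med13l: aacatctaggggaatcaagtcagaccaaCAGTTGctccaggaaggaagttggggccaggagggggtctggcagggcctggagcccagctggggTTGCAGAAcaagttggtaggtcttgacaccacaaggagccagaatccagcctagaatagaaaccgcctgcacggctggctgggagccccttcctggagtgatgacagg
Ing1: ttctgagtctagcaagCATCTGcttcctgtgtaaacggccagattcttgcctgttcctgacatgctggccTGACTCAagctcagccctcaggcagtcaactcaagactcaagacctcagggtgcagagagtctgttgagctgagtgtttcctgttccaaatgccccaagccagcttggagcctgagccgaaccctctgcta
Cnn3: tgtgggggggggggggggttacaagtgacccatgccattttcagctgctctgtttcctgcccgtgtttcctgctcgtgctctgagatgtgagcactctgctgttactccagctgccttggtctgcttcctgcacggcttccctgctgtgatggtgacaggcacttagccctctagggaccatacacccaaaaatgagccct
No Gata string was found in any of these 5 windows, and the Dusp2 and Cnn3 windows held none of the strings.

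The regions lay at a median of 23.5 kb from the nearest protein-coding start, and 65.9% lay upstream of it. Between 3 and 10 kb there were 6004 regions, between 10 and 25 kb 8799, between 25 and 50 kb 7319, and between 50 and 100 kb 6222. The share found in all 16 lists was 30.2% in the nearest of these bins and 28.4%, 25.6% and 22.3% in the next ones, so that it fell with distance. In all, 7569 regions (26.7%) had a peak in every list. A further 629 had a peak in all 8 lists of replicates 3 and 4 and in none of the 8 of replicates 1 and 2, against 2 regions with the opposite pattern. Lists of replicates 3 and 4 held 130610 to 137335 peaks and those of replicates 1 and 2 held 86039 to 110055.

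Within each list, every peak was ranked by the authors' −log10 p and the rank written as a percentile, with 100 for the strongest peak. Intergenic regions stood below promoters and above distal introns and intergenic DNA beyond 100 kb in every library. Their median rank percentile was 55.3 ± 3.98 (SD, n = 16 libraries), against 72.2 ± 3.75 within 3 kb of a start, 50.4 ± 4.48 in distal introns and 47.8 ± 5.34 in intergenic DNA beyond 100 kb. The difference from distal introns was 4.87 ± 0.701 and the regions ranked higher in 16 of 16 libraries (exact sign-flip permutation test over libraries, two-sided, p = 3.05e-05, the smallest it can give, adjusted p = 3.66e-05 over 12 comparisons). Among regions in all 16 lists, the difference from distal introns shrank to 1.08 ± 0.736, with 15 of 16 libraries on the same side (adjusted p = 6.66e-05). Single peaks were slightly wider than in distal introns and narrower than at promoters, at a mean of the library medians of 342 bp against 328 bp and 564 bp.

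The regions differed from promoters in base composition and in how often they carried the Ctcf string. Their windows had a median GC content of 49.8% and 3.10 CpG on average, against 54.7% and 8.72 at promoters. The string of Ctcf, the factor that binds insulators and loop anchors, stood in 7.06% of the intergenic windows, 4.81% of those in distal introns, 4.11% at promoters, 6.64% of exonic regions and 5.34% beyond 100 kb, against 5.18% of all 125367 windows. It rose with recurrence, from 1.7% of regions in 4 to 7 lists to 11.8% of those in all 16 lists. The Gata string stood in 10.1% and the Ets string in 10.1% of the intergenic windows. Shares were 10.7% and 10.3% in distal introns and 9.17% and 9.06% of all windows. These are matches of letters in the reference and not sites of binding.

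At 8827 genes at least 1 region was assigned to the nearest protein-coding start, with a median of 2 per gene, and 382 genes had 10 or more. These 382 genes held 4858 regions (17.1%). The 20 genes with the most regions held 458, of which 152 (33.2%) were in all 16 lists. DNA that met the position rule covered 499.9 Mb or 20.3% of chromosomes 1 to 19, with 5.67 regions per 100 kb. Counts depend in part on how much such DNA a gene has, so that the density is given with them.

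Zfp217, a zinc-finger regulator of transcription, had the most regions, 31 over 161 kb of chromosome 2 (170078130 to 170239628), with 25 upstream and 25.7 per 100 kb. Of these, 12 were in all 16 lists. WT libraries held 21 ± 6.06 of them (SD, n = 4 libraries), P300KO libraries 22 ± 5.89, TET2KO libraries 23.8 ± 4.92 and double-knockout libraries 23.3 ± 4.5, so that the genotypes overlapped. Its strongest region, shown above, ranked between 85.3 and 94.7 in the 16 lists.

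S1pr1, a sphingosine-phosphate receptor that guides cell egress, had 29 regions with 9 in all lists, and Sik1, a salt-inducible kinase, had 29 with 6. Runx3, a transcription factor of the Runx family, had 27 regions, and 13 of them were in all 16 lists, the highest number among the 20 genes. The strongest Runx3 region lay 53.8 kb downstream of the start, within chr4:135205753-135206780, and ranked between 91.8 and 97.8. That of Sik1, at 20.1 kb downstream, ranked between 89.7 and 98.4. Ywhaz, an adaptor for phosphorylated proteins, had 26 regions and Rybp, a Polycomb subunit, had 24.

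Fos, an early-response factor, had 23 regions within 49.3 kb of its start at 27.0 per 100 kb, with 7 in all 16 lists. Il12a, a cytokine subunit, had 22. Tnfaip3, which limits inflammatory signalling, and the Wnt ligand Wnt11 had 20 each. Zfp36l2, which promotes mRNA decay, had 19 at 28.6 per 100 kb, the highest density among the 20 genes, and its 7 shared regions ranked high, at a mean percentile of 88.0 ± 3.43 in WT and 87.4 ± 1.77 in P300KO_TET2KO. Others were Klhl25, Gm11084 and Arl4c with 21 regions each, Enpp6 with 20, and Irf2bp2, Prex1 and Rplp1 with 19 each.

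**Figure D1:**
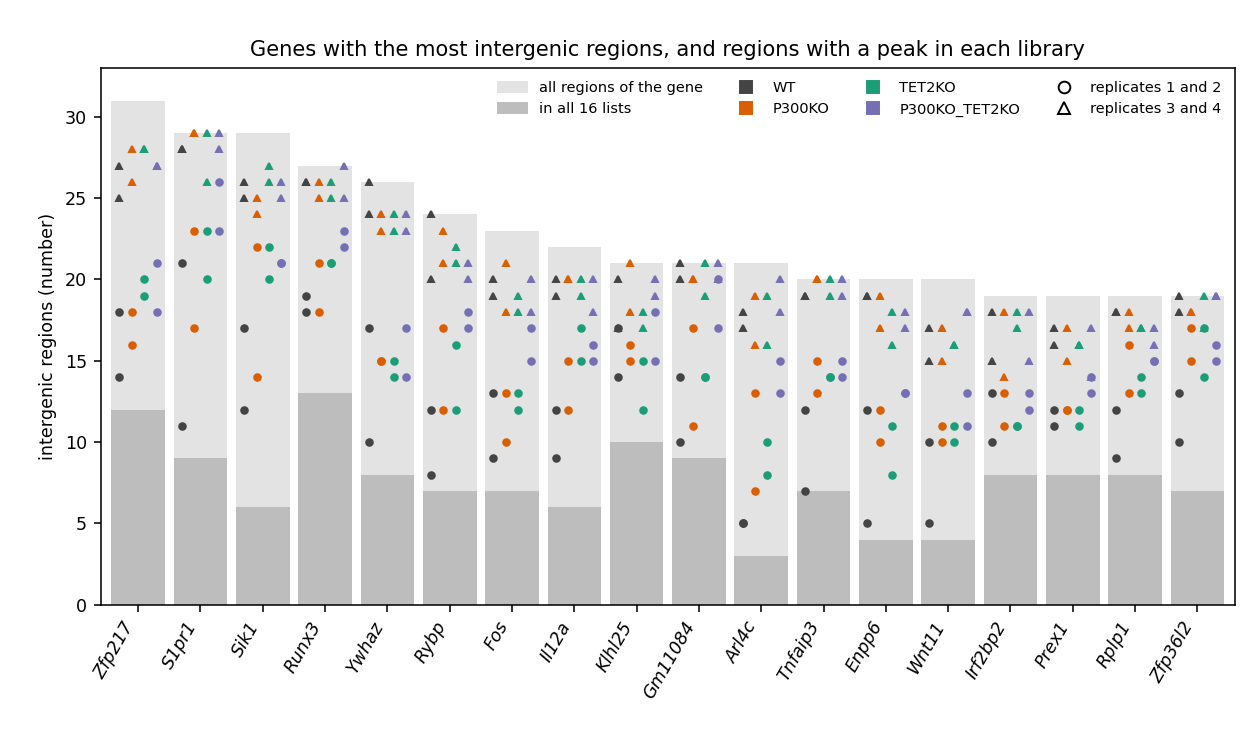
Number of intergenic regions at each of 18 of the genes with the most regions (light bars), of those in all 16 lists (dark bars), and with a peak in each library (points, coloured by genotype; circles for replicates 1 and 2, triangles for replicates 3 and 4). At Zfp217 the bar reaches 31 and the dark part 12, and the triangles lie above the circles in most columns.

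Density picked out other genes. Among genes with 10 or more regions, Psd2 had 12 in 30.0 kb of eligible DNA (40.0 per 100 kb), Snx5 13 in 32.7 kb, and Il21r, a cytokine receptor, 11 in 28.3 kb. Socs3, a feedback inhibitor of cytokine signalling, had 15 in 45.9 kb (32.7 per 100 kb) with 9 in all 16 lists, and Socs1 of the same family had 11 in 37.3 kb with 2. Dusp2, a phosphatase of MAP kinases, had 10 in 29.8 kb.

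Lists of genes with known roles in these cells are given beside the median over all 20733 annotated genes, which was 0 regions per gene. Eligible DNA was present at 15943 protein-coding genes, and the counts of the lists were not scaled by it. Regulators of stem and progenitor cells had 91 regions at 13 of 20 genes, with 16 at Lmo2, 12 at Runx1, and 11 each at Fli1 and Etv6, and a median of 3 per gene. Myeloid genes had 70 regions at 14 of 16 genes (median 3), 11 of them at Cebpb, and 9 each at Nfil3, Csf3r and Zeb2. Erythroid and megakaryocyte genes had 19 regions at 6 of 12 genes (median 0.5), with 5 each at Tfrc and Vwf. The erythroid and megakaryocyte genes without a region had only 0.3 to 5.8 kb of eligible DNA. Lymphoid genes had 46 at 10 of 14 genes (median 2), with 10 at Lef1 and 7 at Notch1. Genes of signalling, survival and cell cycle had 65 at 11 of 12 genes (median 4.5). They were led by the chemokine receptor gene Cxcr4 with 18 in 168 kb of eligible DNA and the stem cell factor receptor gene Kit with 10 in 109 kb. Early-response genes had 58 at 9 of 13 genes (median 2), with 23 at Fos and 8 each at Btg2 and Klf6. The share in all 16 lists ran from 26.3% in the erythroid list to 41.4% in the myeloid list, against 26.7% of all intergenic regions. Mean ranks of the shared regions had a median of 87.6 in the early-response list and 60.2 in the erythroid list (5 regions), against 76.3 over all shared intergenic regions.

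The first question across genotypes was whether the share of a list that fell in these regions differed. WT libraries had 12.3%, 15.5%, 20.6% and 20.7% of their peaks in the regions, and P300KO libraries 19.1%, 17.0%, 20.4% and 20%. TET2KO libraries had 19.3%, 18.8%, 20.3% and 20.4%, and P300KO_TET2KO libraries 20.2%, 21.1%, 20.5% and 20.7%. The 2 lowest values were those of WT replicates 1 and 2, and P300KO replicate 2 was the next lowest. The mean was 0.920 percentage points higher in P300KO_TET2KO than in TET2KO (exact permutation test over 70 regroupings, two-sided, adjusted p = 0.171). None of 6 comparisons passed, with a lowest adjusted p of 0.114, and the p300 effect did not differ between Tet2 backgrounds by a test of that difference (p = 0.631, exact permutation within strata). Within replicates 3 and 4 alone, P300KO minus WT was −0.431 points, the opposite of the pooled direction.

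The 3 lists with a peak in the fewest regions had the 3 highest median ranks. WT libraries had median rank percentiles of 67.1, 61.9, 53.9 and 53.8, P300KO libraries 55.0, 57.4, 54.3 and 54.6, TET2KO libraries 53.9, 54.6, 54.7 and 53.8, and P300KO_TET2KO libraries 52.4, 50.8, 53.2 and 52.7. All 4 P300KO_TET2KO libraries lay below all libraries of the other genotypes. Of 6 comparisons 4 passed, those of p300 and of Tet2 over both backgrounds, lower without each, and the 2 that follow. Those of p300 and Tet2 no longer passed over the regions present in every list. P300KO_TET2KO minus TET2KO was −1.99 points (exact permutation test, two-sided, p = 0.0286, the smallest it can give, adjusted p = 0.0429 over 6) and P300KO_TET2KO minus P300KO was −3.09 points (adjusted p = 0.0429). With replicate number as a block the adjusted p of both was 0.188 (exact sign flips over 4 pairs), but that test cannot go below p = 0.125 and so could not pass. Without WT replicates 1 and 2 both differences and their p of 0.0286 (exact permutation test) stayed as they were, since no WT library enters them, and the adjusted p was 0.0741 because the other comparisons of the 6 moved. The lists with the highest medians, WT replicates 1 and 2, had a peak in 10740 and 15278 of the regions. TET2KO libraries had 16132, 16000, 25355 and 25020, and P300KO_TET2KO libraries had 18093, 19145, 25116 and 25104. Over the 7569 regions present in every list, the difference between P300KO_TET2KO and TET2KO was 0.378 in the opposite direction (adjusted p = 0.960), and at a −log10 q of 2 or more it was 0.174, also reversed (adjusted p = 0.943).

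**Figure D2:**
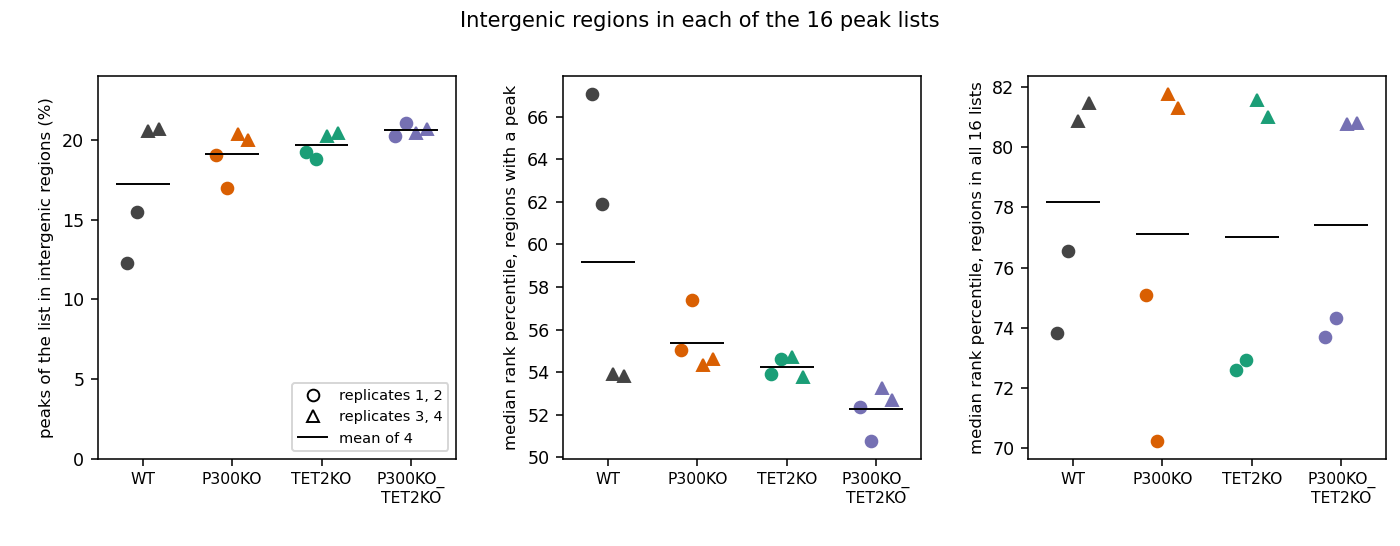
Share of each list's peaks in intergenic regions (left, %), median rank percentile of the regions with a peak (middle) and of the 7569 regions with a peak in all 16 lists (right), by genotype, with 1 point per library and a line at the mean of 4. The P300KO_TET2KO points lie lowest in the middle panel, between 50.8 and 53.2, while in the right panel the 2 deposit sets separate and the genotypes overlap.

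Few regions were present in all libraries of 1 genotype and absent from all of another. Between P300KO_TET2KO and TET2KO, 40 regions had a peak in 4 of 4 against 0 of 4 libraries and 8 showed the reverse, together 0.169% of the regions, where 0.167 percent of all regions in at least 4 lists did so. The gained region with the highest mean rank over the lists with a peak was at Aff3, at 31.6, 35.8, 53.5 and 52.5 in P300KO_TET2KO. That region (chr1:38725732-38726239) also had a peak in 4 of 4 WT and 3 of 4 P300KO libraries. The gained regions at the amino acid transporter gene Slc7a8 and at Slc46a3 had a peak in 3 and 2 WT libraries. Among the lost regions, 1 at Il2ra, the interleukin receptor chain, had ranks of 8.90 to 48.0 in TET2KO and a peak in 3 of 4 WT and 3 of 4 P300KO libraries. A lost region at 1700016K19Rik had a peak in 4 of 4 WT and 1 of 4 P300KO libraries, and 1 at Enho in 2 and 0. P300KO against WT gave 6 gained and 8 lost regions (0.0494% of the regions, 0.0558 percent of all), and P300KO_TET2KO against P300KO gave 43 and 24 (0.236%, 0.225 percent of all). TET2KO against WT gave 7 and 6 (0.0459%, 0.0487 percent of all). The shares of intergenic regions were thus close to those of all regions in each comparison. Leaving out 1 library of a pair loosens the rule. Counts then reached 144 for P300KO_TET2KO against TET2KO and 159 against P300KO, and 64 and 67 for P300KO and TET2KO against WT.

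Ranks were then compared region by region among the 38694 regions of all classes with a peak in every list, of which 7569 were intergenic. Ranks were turned into normal scores, so that a difference of 1 is 1 SD of the scores, and were fitted with limma with deposit set as a term and adjustment over all 38694. Comparing the 8 libraries without p300 with the 8 with it, over both Tet2 backgrounds, 237 intergenic regions passed, 77 higher and 160 lower without p300. They were 3.13% of those tested, where 2.64 percent of all regions passed, 1.70% of promoters, 3.62% of distal introns and 5.83% of intergenic regions beyond 100 kb. Where libraries were left out, more regions had a peak in every list that remained. With WT replicates 1 and 2 left out, 212 of 10306 intergenic regions passed (73 higher, 139 lower), beside 982 of 49967 regions of all classes, and 116 of the 237 were among them. All 237 had the same direction there. With replicate number as a block, 169 passed (49 higher, 120 lower), beside 749 of all regions, and 159 of the 237 were among them. Leaving out 1 library gave 126 to 328. The 126 without P300KO_TET2KO replicate 4 stood beside 511 of 38696 regions of all classes. The highest was 328 of 9705 tested without WT replicate 1, beside 1384 of 47463 of all classes. The count was 155 or fewer without WT replicate 3, P300KO replicate 3, TET2KO replicate 3 or 4, or P300KO_TET2KO replicate 2, 3 or 4.

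The direction split depended on the column that was ranked. By fold enrichment instead of −log10 p, 180 regions passed, with 107 higher and 73 lower, and 114 were shared with the first list. The split turned in the same way over regions of all classes, from 358 higher of 1020 to 408 higher of 694. Single regions seldom turned, as 235 of the 237 had the same direction in both. The deposit sets share no library. In replicates 3 and 4 alone 418 intergenic regions passed, beside 1731 of all 38694. Of the 418, 342 (81.8%) differed in the same direction in replicates 1 and 2, compared with 60.5% of all 7569. None passed in limma in replicates 1 and 2 alone, where 733 had an unadjusted p under 0.05.

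Among the regions that were lower without p300, that of Ing1, a chromatin reader (chr8:11574701-11576403, 17.1 kb downstream of the start), had the largest difference of the 5 with the smallest p, −0.916 ± 0.102 (SE, limma adjusted p = 9.32e-04). It ranked at 81.2, 88.4, 88.4 and 84.9 in WT and 68.0, 67.1, 69.2 and 70.8 in P300KO, and at 73.8, 73.3, 87.8 and 84.6 in TET2KO and 62.5, 63.8, 67.7 and 69.1 in P300KO_TET2KO. No library without p300 reached the lowest of those with it.

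The region 21.6 kb upstream of Dusp2 (chr2:127313864-127315177) ranked at 51.4 to 68.5 without p300, with a median of 62.5, and at 66.9 to 81.1 with it, with a median of 77.3 (−0.762 ± 0.0815). That of Mlec, a lectin of the endoplasmic reticulum, ranked at 75.1 to 88.7 against 86.9 to 95.4 (−0.658 ± 0.0716), and that of Med13l, a subunit of the Mediator kinase module, 84.0 kb upstream, at 58.9 to 83.3 against 76.2 to 87.8 (−0.808 ± 0.0883). The region 56.5 kb upstream of Cnn3, which encodes a calponin, was low in P300KO_TET2KO at 54.1, 48.9, 68.7 and 68.9 and between 73.7 and 93.7 in the 12 other libraries. It was lower both without p300 (−0.901 ± 0.101) and without Tet2 (−0.935 ± 0.101, limma adjusted p = 0.00181). Ranked by fold enrichment, the difference without Tet2 was −0.321 and did not pass (limma adjusted p = 0.26).

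Among the regions that were higher without p300, that of Mxi1, an antagonist of Myc, 6.88 kb upstream (chr19:53303112-53304164), ranked at 71.8 to 81.0 without p300, with a median of 76.3, and at 31.9 to 73.9 with it, with a median of 63.6 (0.759 ± 0.12, limma adjusted p = 0.00609). That of Ncf4, a subunit of the phagocyte NADPH oxidase, 22.9 kb downstream, ranked at 82.1 to 89.1 against 53.9 to 83.7 (0.755 ± 0.113), and that of Dock8, an exchange factor for small GTPases, at 69.7 to 80.7 against 52.5 to 72.8 (0.695 ± 0.104). Regions of Vtcn1, an inhibitory ligand of T cells, and Mterf1b, of mitochondrial transcription, completed the 5, at 0.748 ± 0.123 and 0.708 ± 0.112 (adjusted p of 0.00767 and 0.00609 in limma). WT replicate 1 was the lowest of its genotype at 4 of these 5 regions. Without WT replicates 1 and 2 the differences were 0.524 at Mxi1, 0.603 at Ncf4, 0.714 at Dock8 and 0.681 at Mterf1b, with limma adjusted p of 0.0143 to 0.0225, and Vtcn1 no longer passed, at 0.615 with a limma adjusted p of 0.0508. The 5 lower regions above, at Ing1, Dusp2, Mlec, Med13l and Cnn3, passed without these libraries, at −0.848 to −0.596.

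**Figure D3:**
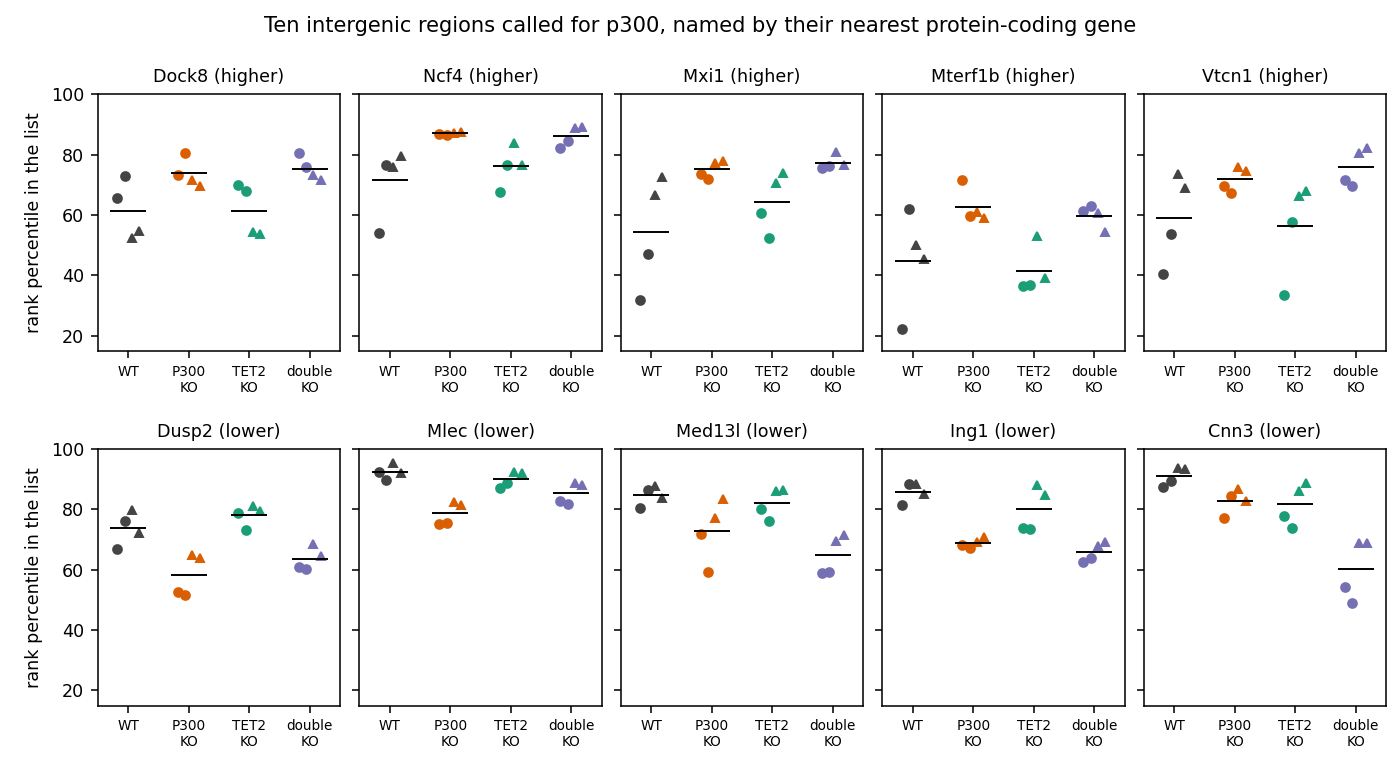
Rank percentile (100 for the strongest peak of a list) in each library of the 5 regions called higher and the 5 called lower without p300 with the smallest p, with circles for replicates 1 and 2, triangles for replicates 3 and 4 and a line at the mean of 4. At Ing1 all points without p300 lie below those with it, at 62.5 to 70.8 against 73.3 to 88.4, while in the other panels of the lower row the ranges overlap.

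The windows of these called regions differed in the strings they held. The Gata string stood in 22 of the 77 regions that were higher without p300 (28.6%) and in 2 of the 160 that were lower (1.25%), against 9.26% of the 7569 shared intergenic regions. The Cebp string stood in 16.9% of the higher and 3.75% of the lower regions (9.83% of all shared), the Myb string in 20.8% and 31.9% (22.2%, and 22.4% and 23.7% when called in replicates 3 and 4 alone), and the Ctcf string in 6.49% and none of the 160 (11.8%). When ranked by fold enrichment, the Ctcf string stood in 12.1% of the higher and none of the 73 lower regions. Runx strings stood in 15.6% and 13.1% (12.8%). Median GC content was 51.2% in the higher and 53.2% in the lower regions, beside 51.7% in all shared intergenic regions. These shares are a description of selected regions, and no test was made on them.

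**Figure D4:**
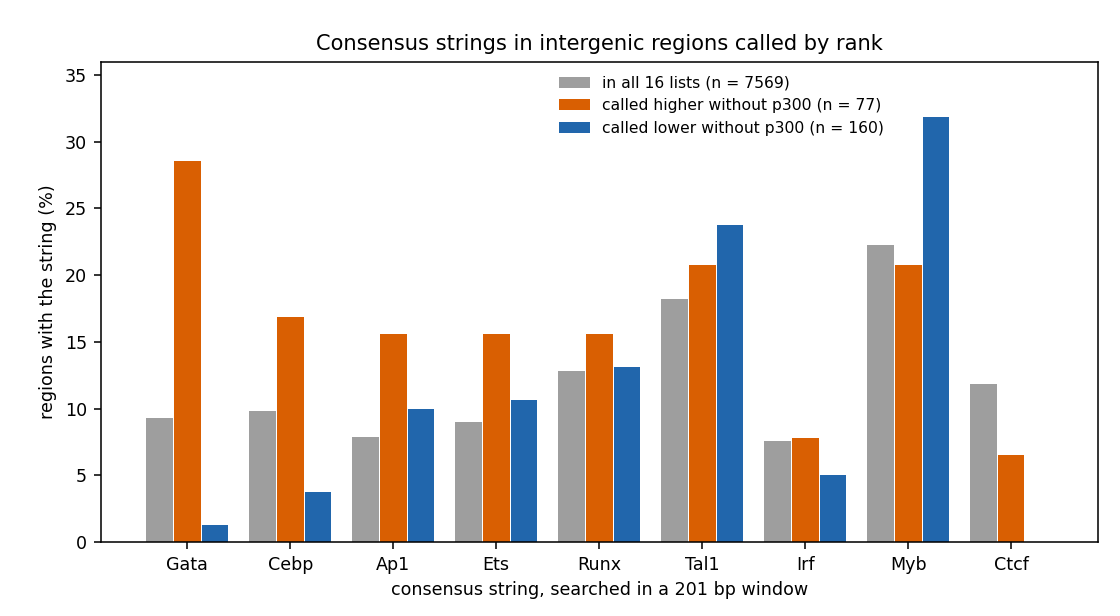
Share of windows (%), 100 bp on either side of the summit, with each consensus string in the 7569 shared intergenic regions and in those called higher (77) or lower (160) without p300. The Gata bars show the widest gap, 28.6% against 1.25%.

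The Gata strings were also counted under 4 other ways of making the calls. It was 16.8% of higher against 1.37% of lower regions when ranked by fold enrichment, 34.2% against 0.719% without WT replicates 1 and 2, 36.7% against 1.67% with replicate number as a block, and 32.7% against 2.37% in replicates 3 and 4 alone. In windows of 50 bp on either side it was 19.5% of the higher and none of the lower regions, with 4.52% of all shared intergenic regions. Regions of other classes, which were called in the same fit, gave 40.3% against 3.9% in distal introns, 29.0% against 6.40% within 3 kb of a start, and 50% of 12 against 8.06% of 62 beyond 100 kb.

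**Figure D5:**
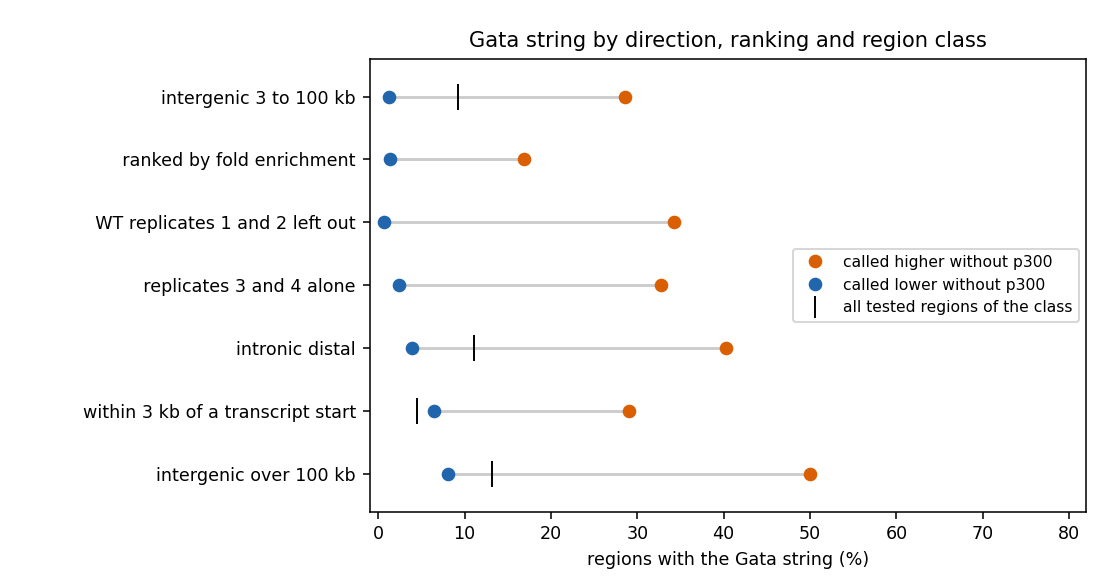
Share of windows (%) with the Gata string in regions called higher (orange) and lower (blue) without p300, for intergenic regions as first ranked and under 3 other ways of calling, and for 3 other classes, with a tick at the share in all tested regions of the class. Orange points lie to the right of blue in all 7 lines, from 16.8% to 50%.

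The 22 higher regions with a Gata string lay near 22 genes, which are named here after their values were seen. They included Lyz1, a lysozyme gene (0.688 ± 0.140, 9.08 kb upstream), Cebpe, a factor of granulocyte maturation (0.254 ± 0.0582, 5.80 kb downstream), Tpm1, a tropomyosin gene (0.652 ± 0.113), Ifit1, an interferon-induced gene (0.651 ± 0.135), and Ncf4 and Mxi1 above. By fold enrichment the Cebpe difference was −0.0554. The 2 lower regions with the string were at Ksr1, a scaffold of the Ras pathway (−0.374 ± 0.0872), and Smad7, an inhibitor of TGF-beta signalling (−0.871 ± 0.197). In bulk samples, a change in how many cells are of a type and a change in accessibility per cell cannot be told apart. Promoters of the erythroid and megakaryocyte list, where Gata factors are known to act, were measured beside this: 0 of 13 shared promoter regions passed in limma in either direction, where 84 higher and 106 lower of 15330 shared regions at protein-coding promoters did, and the median p300 difference was 0.0640 against 0.00351, and the part of cell types in the result was not tested.

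The 237 were looked up at the listed genes and at the 20 genes with the most regions. Of the listed genes, Klf4 and Cebpe of the myeloid list (29 regions tested) had 1 region each that rose without p300. Tcf7 of the lymphoid list (13 tested) had 1 that fell. The Klf4 region (chr4:55488446-55489702, 42.7 kb downstream) had a difference of 0.444 ± 0.0857 and that of Tcf7 −0.459 ± 0.0875. None passed in the stem and progenitor, erythroid, signalling or early-response lists, which had 30, 5, 20 and 23 regions tested, where 3.13% of intergenic and 2.64 percent of all regions passed. Lists of this size are too small to set such counts apart from those shares. At the 20 genes with the most regions, 9 of 152 tested regions passed and all 9 were lower, where 160 of the 237 were, 2 each at Ywhaz and Irf2bp2 and 1 each at Sik1, Klhl25, Rplp1 and Zfp36l2 among them. The 237 lay near 225 genes, and 3 at Slc22a16 was the most at any gene.

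Between P300KO_TET2KO and TET2KO alone, 10 intergenic regions passed (0.132% of 7569, with 0.129 percent of all regions), 1 higher and 9 lower. Without WT replicates 1 and 2, 33 of 10306 passed, 9 of the 10 among them, beside 157 of 49967 regions of all classes. No WT library enters this difference, so that a pass there was largely fixed beforehand and is no support for the 10. With replicate number as a block 8 passed, 7 of the 10 among them, beside 29 of all regions. Leaving out 1 library gave 3 to 22. The count was 3 without TET2KO replicate 1 or P300KO_TET2KO replicate 4, beside 10 of 38968 and 10 of 38696 regions of all classes. It was 22 of 9705 without WT replicate 1, beside 123 of 47463. The higher one lay 5.84 kb upstream of Jdp2 (chr12:85592911-85593460), which encodes a repressor that pairs with Jun. It ranked at 56.3, 55.1, 68.0 and 58.5 in TET2KO, at 74.5, 70.8, 73.7 and 73.7 in P300KO_TET2KO, and at 74.9 to 77.3 in the 8 WT and P300KO libraries (0.648 ± 0.0969, limma adjusted p = 0.0235). TET2KO was thus the low genotype there, and the groups did not overlap. By fold enrichment the Jdp2 difference was 0.550 and did not pass (limma adjusted p = 0.0945). The 5 lower regions with the smallest p were those of Cnn3 (−1.22 ± 0.142), Cd209a (−1.35 ± 0.162), Med13l (−1.02 ± 0.125), Dusp2 (−0.820 ± 0.115) and Bnc2 (−1.39 ± 0.199). By fold enrichment 8 regions passed, 6 higher and 2 lower, beside 46 of all regions with 37 higher, and 2 of the 10 were among them, that of Bnc2 included.

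The Cd209a region (chr8:3754314-3754820) ranked above 99 in all 12 libraries other than P300KO_TET2KO and at 98.2, 97.8, 95.5 and 95.9 there. It matched Rn18s-rs5, a copy of the small-subunit ribosomal RNA gene, over 314 bp at 88.9% identity, so that reads of ribosomal DNA could be placed there, and its fold difference was −0.154 with a limma adjusted p of 0.435. The strongest region of all, upstream of the bile salt exporter gene Abcb11 (chr2:69355469-69355735), had a mean rank of 99.95 and matched the mitochondrial genome over 129 bp at 100.0% identity. Such a match was found in 2 of 28344 regions. The next in rank were at Wnt7b (99.7), Hic2 (99.7), Zfp395 (99.7) and Trappc9 (99.6), and none of these had such a match.

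Without Tet2, 84 intergenic regions passed over both p300 backgrounds (1.11% of 7569, with 0.783 percent of all regions), 18 higher and 66 lower, with 55 under the replicate block, beside 189 of all regions. Without WT replicates 1 and 2, 26 of 10306 passed, beside 86 of 49967 regions of all classes, and 17 of the 84 were among them. By fold enrichment 61 passed, beside 169 of all 38694, with 25 higher and 36 lower, and 43 of the 84 were among them. Leaving out 1 library gave 46 to 79, with 46 without P300KO_TET2KO replicate 3, beside 155 of 38712 regions of all classes. The 79 without WT replicate 1 stood beside 277 of 47463. In replicates 3 and 4 alone 25 passed, beside 65 of all 38694. Of these 25, 25 had the same direction in replicates 1 and 2, compared with 56.5% of all 7569. The following were named after their values were seen. The region 17.0 kb downstream of the start of Litaf ranked at 1.74 to 41.7 without Tet2 and 34.8 to 70.6 with it (−1.58 ± 0.185, limma adjusted p = 0.00219). Among the higher regions, that of Cerk, a ceramide kinase gene, ranked at 63.3 to 80.1 against 44.1 to 73.6 (0.570 ± 0.0811).

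At Gata2, a regulator that stem cells need, 2 upstream regions were lower without Tet2, at 46.3 kb (chr6:88147082-88148073, −0.647 ± 0.107) and 27.6 kb (chr6:88165844-88166646, −0.765 ± 0.133). The nearer one ranked at 85.1, 87.8, 88.9 and 86.8 in WT, 92.4, 87.2, 88.7 and 90.9 in P300KO, 82.1, 64.5, 75.3 and 77.0 in TET2KO, and 81.1, 84.1, 79.1 and 70.5 in P300KO_TET2KO. All 8 libraries without Tet2 lay below the 8 with it at this region. By fold enrichment the limma adjusted p was 0.113 at the farther region and 0.114 at the nearer one. No other region of the listed genes passed for Tet2.

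P300KO against WT gave 45 intergenic regions (0.595%, with 0.548 percent of all regions), 13 higher and 32 lower, but 21 under the replicate block, 1 by fold enrichment and 1 of 10306 without WT replicates 1 and 2, beside 93, 4 and 10 regions of all classes. P300KO_TET2KO against P300KO gave 18 (0.238%, with 0.147 percent of all), 4 higher and 14 lower, and 13 under the replicate block, beside 41 of all classes. Without WT replicates 1 and 2, which do not enter this difference, it gave 43 of 10306, beside 154 of 49967. TET2KO against WT gave 1 region (0.0132%, with 0.00517 percent of all), and 0 in limma under the block, where 814 had an unadjusted p under 0.05, by fold enrichment, where 723 did, and without WT replicates 1 and 2, where 482 did. These comparisons share libraries with each other and with those over both backgrounds.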

How the data were processed

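ATAC-seq peak lists of 16 libraries, 4 per genotype, were used. Members, gene lists and strings were chosen with earlier results of these data known. The submitters' processing notes name cutadapt 1.9.1, Bowtie2 2.2.6 and MACS2 2.1.0 with mm10, and the study's methods describe removal of duplicates, a shift of reads for the transposase and peak calling per library. The deposited peaks carry, per peak, the authors' fold enrichment over background (a ratio), the −log10 p on which ranks were based, and the −log10 q used for a stricter list. The files hold no read counts, so that depth is unknown beyond 86039 to 137335 peaks per list, and no interval for counting error was given. A list with weaker peaks also shifts every rank in it.

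Peaks were merged at 1 bp of overlap and placed by GENCODE M21 on GRCm38. A region in a list took its strongest peak. The share of peaks and the median rank were tested by exact permutation, two-sided, over 70 regroupings or 1296 within strata, with Benjamini-Hochberg adjustment over 6 comparisons. Normal scores of the ranks of the 38694 regions in all lists were fitted with limma 3.58.1 in R 4.3.3, with all 16 libraries and deposit set as a term, and adjusted over all regions at 0.05. Python 3.11.15, scipy 1.17.1, pysam 0.24.0 and blastn 2.17.0 were also used. On simulated ranks for the p300 comparison with 38694 regions, 200 of 200 planted changes of 1 in ln(−log10 p) were recovered, with 5 other calls. The simulated noise was independent, with an SD of 0.259 for every region and no set effect that varied by region. Recovery was thus near certain. It checked the fitting steps and does not measure the power or error of the calls. Named were the 20 genes with the most regions, the 5 regions per direction with the smallest p for P300KO_TET2KO against TET2KO and for p300, the 3 gained and 3 lost regions with the highest mean ranks over the lists with a peak, and the 5 strongest regions. Deviations of same-numbered libraries from their genotype means correlated at 0.168 to 0.489 over 16 pairs, and at −0.119 to 0.0426 once deposit set was removed. Replicate numbers thus paired libraries through the deposit sets. Blocked counts of called regions and blocked results for the median rank are given, but not blocked values of single regions. Alternatives were a −log10 q of 2, the strongest 50000 peaks, 8 lists, a 50 kb limit, 50% coverage, ranking by fold enrichment, single deposit sets, a replicate block, no deposit set term, single libraries left out and, added after seeing the data, further runs such as that without WT replicates 1 and 2. Chromosomes X and Y were not used here, and values of some genes are not reported here.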

Additional observations from a re-analysis of the deposited data

Results flagged for a closer look

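Among 200 groups of 4 libraries at the named regions, 8 had 1 library far from the other 3 by Dixon's criterion, where chance gives about 1 in 20. At the Cd209a region, the lowest WT library was at 99.8 and the lowest P300KO library at 99.9, both within a narrow range near the top of the list. The same held at Hic2 for a TET2KO library at 99.9, and among P300KO_TET2KO libraries for 1 at 99.3 at Abcb11 and 1 at 99.4 at Wnt7b. At Ncf4, WT replicate 1 was at 53.9 and the other WT libraries were between 76.0 and 79.5, below all libraries without p300 in each case. At Mterf1b, P300KO replicate 1 was at 71.6 with the others at 59.0 to 60.9, and TET2KO replicate 3 was at 53.2 with the others at 36.5 to 39.2.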

How the results depend on the processing

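Values follow in this order: the double knockout against TET2KO, each single knockout (P300KO first) against WT, the double knockout against P300KO, p300 absent and Tet2 absent, and the cause of a change was not tested. The share of peaks turned direction for P300KO against WT, TET2KO against WT and p300 in replicates 3 and 4 alone (−0.431, −0.281 and −0.100 points), and for the first pair without WT replicates 1 and 2 (−1.52 and −0.933).

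The median rank turned in all 6 at a −log10 q of 2 (0.174, 0.365, 0.333, 0.142, 0.269 and 0.237 points). Over regions in all 16 lists it turned for P300KO_TET2KO against TET2KO (0.378) and against P300KO (0.302), and p300 (−0.346) and Tet2 (−0.422) no longer passed. With the strongest 50000 peaks, P300KO_TET2KO against TET2KO (−0.474), against P300KO (−1.39) and p300 (−1.23) no longer passed. The 4 that had passed failed with 8 lists (−1.80, −2.66, −2.97 and −3.83), in replicates 1 and 2 alone (−2.71, −4.66, −5.49 and −7.45), in replicates 3 and 4 alone (−1.26, −1.51, −0.320 and −0.569), with a replicate block, which kept the values (−1.99, −3.09, −2.91 and −4.01), and without WT replicates 1 and 2 (−1.99, −3.09, −1.12 and −1.93). P300KO and TET2KO against WT turned in replicates 3 and 4 alone (0.620 and 0.370) and without WT replicates 1 and 2 (1.49 and 0.385). Several of these tests could not pass by design: for pairs of genotypes the smallest p is 0.125 with the block (exact sign flips), 0.333 within 1 deposit set and 0.0556 when labels are permuted within both sets, and for p300 and Tet2 it is 0.0556 within 1 set, so that a loss there says nothing about stability. Without WT replicates 1 and 2, the 2 comparisons of the double knockout kept their p of 0.0286 (exact permutation test) and lost the call through adjustment alone.

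Gained and lost regions in the 4 pairs numbered 29, 5, 8 and 36 with 8 lists. They numbered 94 and 106 for P300KO_TET2KO against TET2KO and P300KO at 50% coverage, 5, 8 and 44 for P300KO and TET2KO against WT and P300KO_TET2KO against P300KO at a −log10 q of 2, 39 and 22 for P300KO and TET2KO against WT with 50000 peaks, and 476 and 371 for these without WT replicates 1 and 2.

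With 50000 peaks, called regions numbered 4, 22, 6, 121 and 29 of 4889 tested (TET2KO against WT stayed at 1). Over all classes they numbered 19, 109, 20, 560 and 112 of 27646. At a −log10 q of 2, p300 had 150 of 5749, beside 684 of 31283 of all classes. Replicates 1 and 2 alone gave 0 in all 6 with limma, where 337 to 975 had an unadjusted p under 0.05. Replicates 3 and 4 alone gave 37 for P300KO_TET2KO against TET2KO, 0 for TET2KO against WT, 418 for p300 and 25 for Tet2. Over all classes they gave 179, 0, 1731 and 65. Without a deposit set term called regions numbered 3, 5, 0, 4, 60 and 32, beside 13, 15, 1, 13, 248 and 82 of all classes. By fold enrichment they numbered 1 and 0 for P300KO and TET2KO against WT, beside 4 and 0. With the replicate block they numbered 21, 0 and 55 for P300KO and TET2KO against WT and Tet2, beside 93, 0 and 189. Without WT replicates 1 and 2 they numbered 33, 1, 0, 43 and 26 with p300 at 212. The counts over all classes there were 157, 10, 0, 154 and 86 with p300 at 982. The block changed no other count by over 1.5 times and no call on the share of peaks.

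Leaving out 1 library moved the share of peaks to between 0.634 and 1.17, 0.201 and 3.01, 0.783 and 3.59, 0.801 and 1.92, 0.989 and 1.80, and 1.57 and 2.38 points, and the median rank to between −2.31 and −1.48, −5.62 and −1.20, −6.72 and −2.30, −3.43 and −2.40, −3.55 and −2.26, and −4.65 and −3.36. Of the 4 calls on the median rank, 1 or more were lost without P300KO replicate 1 or any TET2KO library. Called regions ranged over 3 to 22, 4 to 44, 0 to 2, 4 to 34, 126 to 328 and 46 to 79. Runs that gave these lowest and highest counts had 10 and 123, 21 and 199, 0 and 3, 4 and 117, 511 and 1384, and 155 and 277 calls over all classes. Gained and lost regions ranged over 48 to 144, 14 to 64, 13 to 67 and 67 to 159. Where the library left out belonged to the pair, only the remaining ones had to have or lack a peak, a looser rule that can only raise the count. The highest count of called regions for P300KO_TET2KO against TET2KO and for p300 came without WT replicate 1, and that for Tet2 without WT replicate 1 or 4 or TET2KO replicate 4. With libraries left out more regions were tested, such as 9705 intergenic ones without WT replicate 1 and 10306 without WT replicates 1 and 2.

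Of the results at single regions, genes and strings, 456 were alike under the alternatives, 58 no longer passed and 39 moved. Of the 20 genes with the most regions, 8 stayed among the first 20 with a 50 kb limit, 16 with 8 lists and 17 at a −log10 q of 2.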

Other observations

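In the 18 regions called higher without Tet2, the Gata string stood in 33.3%, the Ets string in 33.3% and the Runx string in 38.9%, with 6.06%, 7.58% and 12.1% of the 66 lower regions and 9.26%, 9.01% and 12.8% of the shared intergenic regions. In windows of 50 bp on either side these shares of the higher regions were 11.1% (2 of 18), 5.56% and 27.8%. Of 15 regions called for both p300 and Tet2, 12 were lower in both comparisons. These comparisons use the same libraries and set P300KO_TET2KO against WT in each, so that a region low in P300KO_TET2KO can be called in both. The overlap was not counted over all regions, and a joint action of p300 and Tet2 was not tested. Genes with 2 regions lower without p300 were Irf2, Irf2bp2, Kcng1, Pag1, Pmepa1, Setd4 and Ywhaz, Slc22a16 had 2 that were lower and 1 that was higher, and Jdp2 had 2 that were higher. Windows with at least 50% of their bases marked as repeats made up 12.1% of the regions in 4 to 7 lists and 3.09% of those in all 16.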
